A study of Neurospora crassa with 12 samples.

Results

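The 100 most stable well-expressed genes of Neurospora crassa, a filamentous ascomycete, were chosen from 9730 genes counted by RNA-Seq in 12 libraries. The level of a gene is given as CPM, its count over the total of its library times 1000000. Of the 9730 genes, 2702 reached a CPM of at least 30 in all 12 libraries, and the 100 of these with the lowest coefficient of variation (CV, the SD over the mean of the 12 CPM values) are called stable genes here. The CV was therefore what chose them, and their low variation over these libraries is a description and not a finding.

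The libraries fell into 4 groups with 3 biological replicates each, numbered I to III. The mutant strain (mat a, mus-52::hyg) had mus-52, the KU80 gene of non-homologous end joining, replaced by a hygromycin resistance cassette, and the wild type (WT) was strain 74A (mat A). Each strain is 1 isolate, and the strains also differ in mating type. RNA came from conidia of both strains left to germinate at 30 °C for 5 h in sucrose medium with either 10 mM phosphate (high-Pi) or 10 µM phosphate (low-Pi).

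A reference gene serves expression measurements as a fixed yardstick: the amount of another transcript is divided by that of the reference, so that differences in loaded RNA cancel. Genes for the cytoskeleton, for glycolysis and for translation are used in this way in fungi, since every growing cell needs them. A low CV of CPM is 1 view of stability, because CPM itself depends on what else fills the library, and a bulk measurement cannot tell fewer cells from less RNA per cell.

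Libraries held between 17574263 and 56152963 counts, with a median of 24109740.5. At these depths the stable genes had between 574 and 238979 counts in a library at the lowest and the highest. Reads of mus-52 itself were counted at 21.4 to 27.2 CPM in the 6 libraries labelled mus-52, against 18.7 to 100 CPM in the 6 WT libraries, so the count of the targeted gene did not separate the labels. The mat A genes matA-2 and matA-3 had counts only in WT libraries, at most 9 in any of them, and 0 counts in the libraries labelled mus-52. Their counts were 3 and 9 in WT high-Pi I, 4 and 5 in WT low-Pi I, 1 and 0 in WT high-Pi II and 0 and 4 in WT low-Pi III. WT high-Pi III and WT low-Pi II had 0 counts of both. Of 5 conidial genes looked up as a sign of ungerminated spores, con-6 averaged 17.5 CPM in mus-52 high-Pi, 7.97 in mus-52 low-Pi, 1.66 in WT high-Pi and 1.87 in WT low-Pi. The con-8, con-10, con-13 and eas genes averaged at most 10.8 CPM in any group and did not all go the same way. While con-10 and eas averaged higher in mus-52 in both media, con-8 averaged 0.653 and 0.584 CPM in mus-52 high-Pi and low-Pi, against 1.69 and 1.62 in WT. For con-13 the means were 0.582 and 2.49 CPM in mus-52 high-Pi and low-Pi, against 1.68 and 0.434 in WT. The replicates of mus-52 low-Pi differed, with 18.2, 2.96 and 2.74 CPM for con-6 and 18.7, 6.98 and 6.76 for con-10. The part of the conidial genes in the results below was not tested.

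The first replicate of each WT group differed from the remaining libraries. Over the 2702 genes, the log2 CPM of WT low-Pi I correlated with the libraries labelled mus-52 at r of 0.905 to 0.951, but with WT low-Pi II and III at 0.845. WT high-Pi I correlated at 0.856 to 0.872 with WT high-Pi II and III and at 0.774 to 0.838 with the libraries labelled mus-52. WT replicates II and III of both media correlated with each other at 0.973 to 0.998. These correlations are across genes, which are not independent replicates. Calls between the strains are given below with and without both replicates I. Whether any library carries a wrong label was not settled by these values, and every comparison of the strains below goes by the labels.

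The stable genes had CVs from 5.46% to 12.3%, with a median of 10.5%, whereas the other 2602 genes ranged from 12.3% to 141% with a median of 29.5%. The ratio of a gene's highest to its lowest CPM was 1.19 to 1.67 among the stable genes and stayed under 1.5 for 84 of the 100. Counting error accounted for little of this in most stable genes: the CV that counting alone would give was 0.31% to 3.22%, and its median share of a stable gene's variance was 4.25%. The highest share was 30.8%, that of NCU00126, with a counting CV of 3.03% beside a CV of 5.46%. The CV between replicates within the 4 groups, pooled, had a median of 8.97%, close to the CV over all libraries.

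**Figure D1:**
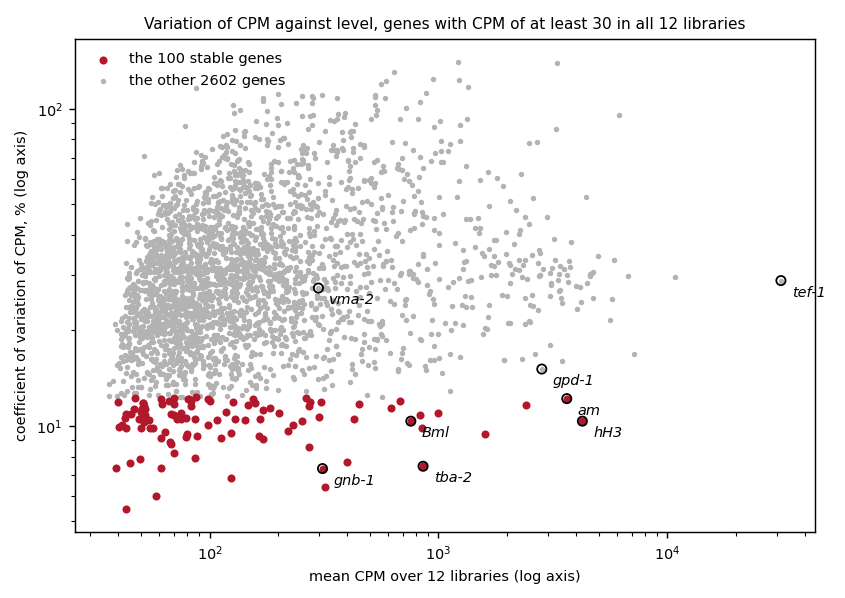
Coefficient of variation of CPM (%, log axis) against mean CPM (log axis) for the 2702 genes with CPM of at least 30 in all 12 libraries, each point being 1 gene. The 100 stable genes (red) lie at or below 12.3% and span mean levels of 39.0 to 4250 CPM, and the circled gpd-1, vma-2 and tef-1 lie above them.

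Stable genes were mostly of moderate level. Their mean CPM had a median of 82.8, below the 122 CPM of the other genes, and 57 of the 100 averaged under 100 CPM, 25 between 100 and 300, 14 between 300 and 1000 and 4 above 1000. Of the 100 genes with the highest mean CPM, 99 were among the 2702, and 3 of them were stable genes, near the 3.7% that the stable genes are of the 2702. That set's own CVs ranged from 10.3% to 140% with a median of 29.9%. Together the stable genes made up 2.68% to 3.03% of a library, while those 100 most counted genes made up 23.1% to 41.0%.

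The gene with the lowest CV was NCU00126, for which the names table gives no symbol. NCU00126 had 38.8, 39.8 and 46.0 CPM in mus-52 high-Pi, 45.6, 45.0 and 42.2 in mus-52 low-Pi, 42.6, 45.8 and 42.5 in WT high-Pi and 44.8, 42.5 and 44.6 in WT low-Pi. All 4 groups overlapped, and the lowest values were 2 of the mus-52 high-Pi replicates. NCU06628 followed with a CV of 6.03% around 58.2 CPM, NCU01160 with 6.43% around 320 CPM and NCU02842 with 6.84% around 124 CPM. The first gene with a symbol was gnb-1 at rank 5, and the other genes of the first 20 were NCU04302, NCU03504, tba-2, NCU09879, NCU08133, NCU00577, NCU07568, NCU06715, NCU09076, NCU06659, NCU06104, NCU08952, NCU03315, NCU02375 and NCU08343, with CVs up to 9.20%.

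At the other end of the list the limit was arbitrary. The last 5 stable genes were NCU07286, NCU06196, NCU01097, NCU02414 and NCU05267, with CVs of 12.19%, 12.21%, 12.26%, 12.28% and 12.29%. The next 5 genes, left outside, were NCU07451 at 12.29%, NCU04766 and NCU08682 at 12.3%, and un-17 (NCU08983) and NCU06631 at 12.34%.

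**Figure D2:**
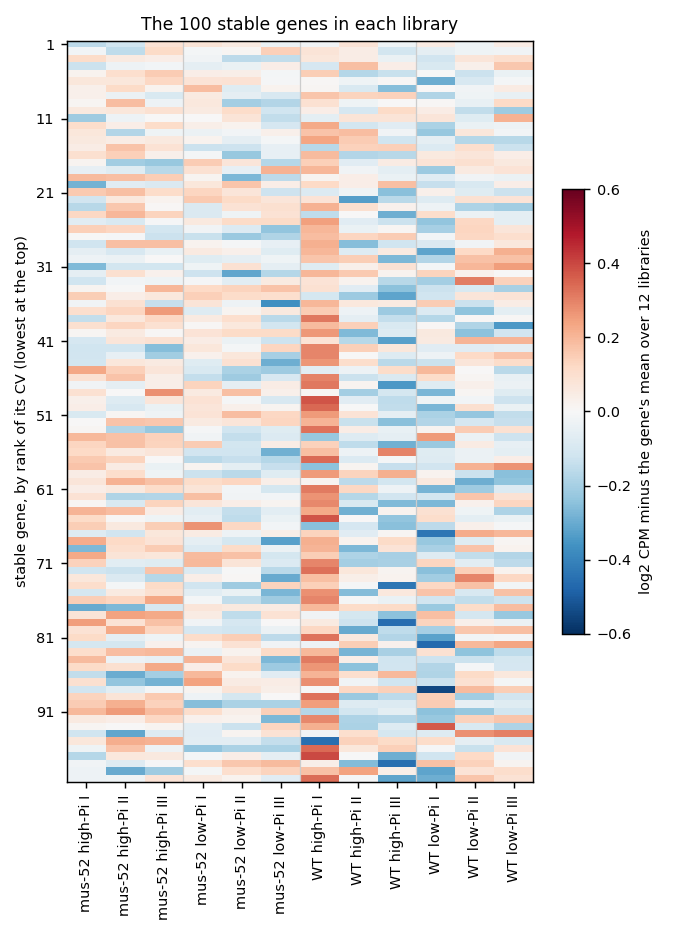
Log2 CPM of each of the 100 stable genes (rows, lowest CV at the top) minus its own mean over the 12 libraries (columns, by group and replicate). Most deviations are small, and the column of WT high-Pi I is red for 82 of the 100 genes, while its dark blue cell near the bottom is am.

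A symbol was given to 19 of the 100 stable genes, and a product name was found for 1 more, NCU01443. The remaining 80 are described by identifier only. Symbols were as common among the other genes at this level, at 525 of 2602 genes (20.2%), and less common over all genes of the tables at 11.5%. Apart from uvs-5 and ppm-1, which are given by name only, the named genes belong to the cytoskeleton, chromatin, signalling, membrane traffic, amino acid metabolism, oxidative defence, translation and the cell wall. None was a ribosomal protein, a proteasome subunit, a vacuolar ATPase subunit or a heat shock protein by symbol. The symbol groups of these held 6, 28, 12 and 9 genes with CPM of at least 30 in all libraries. Their median CVs were 31.6%, 27.7%, 26.8% and 86.4%, beside 28.9% over all genes of this level. The lowest CV in any of them was 16.9% (pcb-5, NCU09309, a proteasome subunit). Symbol groups of protein kinases (stk- and prk-), tricarboxylic acid genes and mitochondrial import genes also held no stable gene. Their lowest CVs were 14.7%, 12.9% and 12.9%, at ranks 209, 127 and 129. Stable genes were 3.7% of the genes of this level, so groups this small could lack them by chance. Their absence from any group was not tested.

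Both partners of the microtubule subunit were stable genes. Microtubules are built of dimers of alpha- and beta-tubulin. The alpha-tubulin gene tba-2 (NCU09468) had 872, 835 and 802 CPM in mus-52 high-Pi, 888, 824 and 799 in mus-52 low-Pi, 960, 937 and 940 in WT high-Pi and 753, 839 and 829 in WT low-Pi, with a CV of 7.46%. The 3 highest values were those of WT high-Pi, and the other groups overlapped. The beta-tubulin gene Bml (NCU04054, also tub-2), which the study used as an endogenous control in its RT-qPCR, had 805, 825 and 803 CPM in mus-52 high-Pi, 757, 787 and 698 in mus-52 low-Pi, 859, 833 and 706 in WT high-Pi and 757, 665 and 593 in WT low-Pi, with a CV of 10.3%. Its lowest values were WT low-Pi II and III, and the media overlapped in the wild type but not in mus-52, where every high-Pi value was above every low-Pi value. The second alpha-tubulin gene, tba-1 (NCU09132), was not among the stable genes, with a CV of 14.5% at rank 199 and 432 CPM on average. Per kilobase of annotated gene length, Bml averaged 286 CPM and tba-2 263 CPM. The third cytoskeletal gene, ro-3 (NCU03483), codes for the p150Glued subunit of dynactin, the activator of the dynein motor, and averaged 82.9 CPM with a CV of 11.6%, its highest value being 93.1 CPM in WT low-Pi II and its lowest that of WT high-Pi III.

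Histones H3 and H2B were stable while their partners in the nucleosome were not. The hH3 gene (NCU01635) was the most counted of the stable genes, with 4260, 4390 and 4250 CPM in mus-52 high-Pi, 4480, 4580 and 4580 in mus-52 low-Pi, 5060, 3520 and 4010 in WT high-Pi and 4410, 3570 and 3900 in WT low-Pi. Its highest value was WT high-Pi I, and the 6 libraries labelled mus-52 lay within 4250 to 4580 CPM. The strains overlapped only through WT high-Pi I and WT low-Pi I, the other WT values all lying below 4250 CPM. The hH2B gene (NCU02435) averaged 2410 CPM with a CV of 11.7%. By contrast, hH2A (NCU02437), hH4-2 (NCU00212) and hH4-1 (NCU01634) had CVs of 22.0%, 25.2% and 36.5%. The hH4-1 gene had 1850, 2090 and 2030 CPM in mus-52 high-Pi and 1810, 1850 and 1620 in mus-52 low-Pi, against 1640, 790 and 815 in WT high-Pi and 1210, 753 and 815 in WT low-Pi. Its values in the libraries labelled mus-52 overlapped those of the wild type only through WT high-Pi I. It was higher in the mus-52-labelled libraries in high-Pi (log2 fold change 0.98, SE 0.245, adjusted p = 0.00811, edgeR) and in low-Pi (0.79, SE 0.244, adjusted p = 0.0273), and without both WT replicates I the changes were 1.14 and 1.00. In that last fit the stable hH2B was called lower in the mus-52-labelled libraries in low-Pi (-0.33, adjusted p = 0.0244, edgeR). The rule chose hH2B on these same libraries. Its call, and those of other stable genes below, are therefore a description and test nothing. The 2 histone H4 genes code for like proteins, and how the counting treated reads that fit both is not given in the sources used here.

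**Figure D3:**
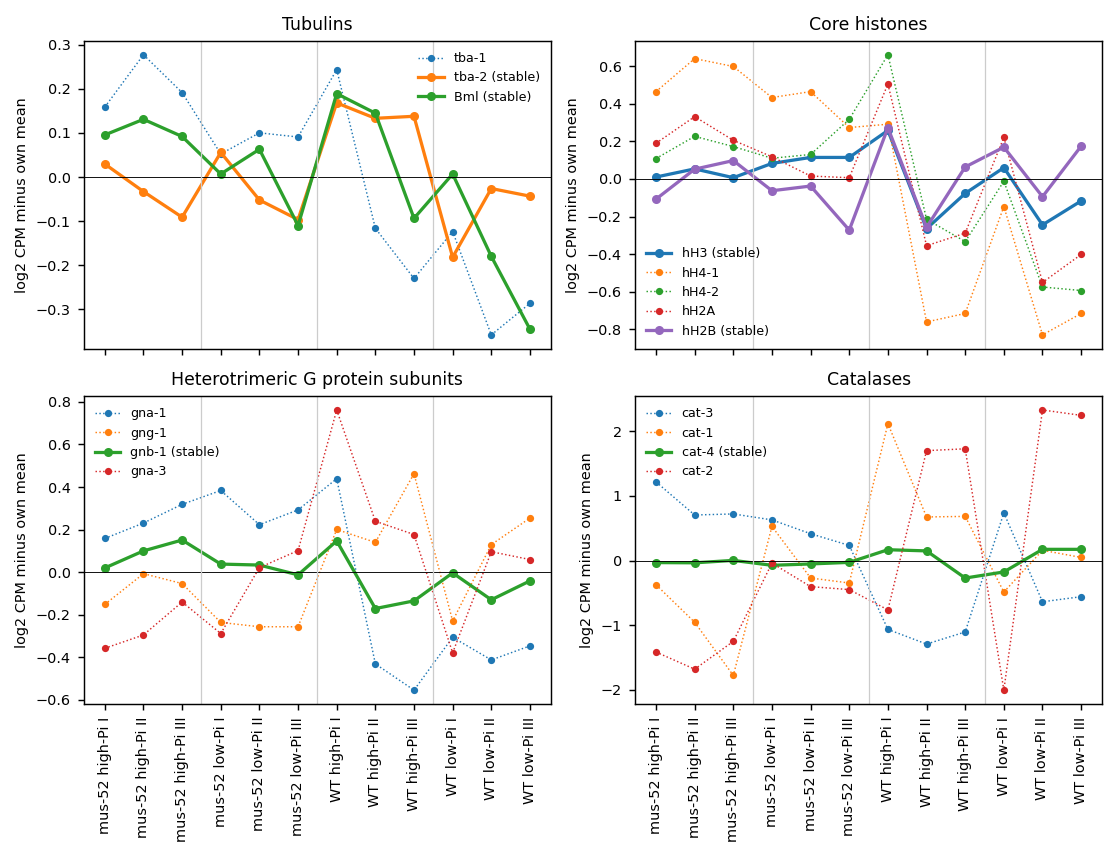
Log2 CPM minus the gene's own mean over 12 libraries, by library, for tubulins, core histones, G protein subunits and catalases with at least 10 CPM in every library. The histone gene hH3v, at 27.1 CPM or more with a CV of 39.9%, is not drawn. Solid thick lines are stable genes and dotted lines the others of the same family, and the vertical scales differ between panels. The stable cat-4 stays within 0.27 of its mean while cat-2 and cat-1 move by over 1.5 in 2 or more libraries.

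Among chromatin genes, rco-1 (NCU06205), the homologue of the Tup1 corepressor of yeast, had 168, 156 and 173 CPM in mus-52 high-Pi, 175, 164 and 154 in mus-52 low-Pi, 214, 157 and 148 in WT high-Pi and 162, 163 and 151 in WT low-Pi. A single value, that of WT high-Pi I, stood off from the rest, which lay between 148 and 175 CPM. The chromatin remodelling factor gene crf4-3 (NCU02684) averaged 148 CPM with a CV of 11.7%, while crf4-1 (NCU03875) and crf4-2 (NCU00164) had CVs of 37.5% and 67.3%. The crf4-2 gene was higher in the libraries labelled mus-52 in both media, by 2.39 (SE 0.51, adjusted p = 0.00437) in high-Pi and 1.75 (SE 0.498, adjusted p = 0.0199) in low-Pi on the log2 scale in edgeR, and by 2.90 and 2.62 without both WT replicates I.

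In signalling, the beta subunit of the heterotrimeric G protein was the most stable of its complex. The gnb-1 gene (NCU00440) had 315, 333 and 345 CPM in mus-52 high-Pi, 319, 318 and 308 in mus-52 low-Pi, 344, 276 and 283 in WT high-Pi and 310, 284 and 302 in WT low-Pi, with a CV of 7.34%. No library left the range of 276 to 345 CPM. The strains overlapped only through WT high-Pi I (344 CPM) and WT low-Pi I (310 CPM). The other WT values, 276 to 302 CPM, were below every value of the libraries labelled mus-52. The gamma subunit gene gng-1 (NCU00041) had a CV of 17.1% and the alpha subunit gene gna-1 (NCU06493) one of 24.6%. The gna-1 gene was higher in the libraries labelled mus-52 by 0.44 (SE 0.161, adjusted p = 0.0388) in high-Pi and by 0.53 (SE 0.161, adjusted p = 0.025) in low-Pi on the log2 scale in edgeR, and by 0.56 and 0.51 without both WT replicates I. The cka gene (NCU03124), for the catalytic subunit of casein kinase II, averaged 306 CPM with a CV of 11.9%, and the genes of its regulatory subunits, ckb-2 (NCU02754) and ckb-1 (NCU05485), had CVs of 14.5% and 24.7%.

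In amino acid metabolism, 5 genes were stable. The am gene (NCU01195), for the NADP-dependent glutamate dehydrogenase that fixes ammonium, had 3780, 4200 and 4170 CPM in mus-52 high-Pi, 3450, 3450 and 3270 in mus-52 low-Pi, 2640, 3970 and 3910 in WT high-Pi and 3900, 3480 and 3390 in WT low-Pi. Its value in WT high-Pi I was the lowest of the 12, and the other 11 lay between 3270 and 4200 CPM. In mus-52 every high-Pi value of am was above every low-Pi value. Glutamine synthetase, gln-1 (NCU06724), which takes the next step, averaged the same 3630 CPM but had a CV of 29.9% and was higher in the mus-52-labelled libraries in low-Pi (0.76, SE 0.215, adjusted p = 0.0188) and in high-Pi (0.59, SE 0.215, adjusted p = 0.0398, edgeR). The gln-1 changes without both WT replicates I were 0.88 and 0.50. Of the tryptophan genes, trp-3 (NCU08409, tryptophan synthetase) and trp-2 (NCU05129, anthranilate synthase) were stable, at 994 and 272 CPM on average. Without both WT replicates I, trp-2 was called lower in the mus-52-labelled libraries in low-Pi (-0.45, adjusted p = 0.00326, edgeR). The trp-4 gene (NCU04411), for the enzyme that follows anthranilate synthase, was lower in the libraries labelled mus-52, by -0.67 (SE 0.184, adjusted p = 0.0127) in high-Pi and -0.70 (SE 0.184, adjusted p = 0.0146) in low-Pi over all libraries, and by -0.84 and -0.78 without both WT replicates I. The his-3 gene (NCU03139) of histidine synthesis averaged 681 CPM and met-5 (NCU07001), for homoserine acetyltransferase, 184 CPM, with CVs of 11.9% and 11.4%.

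Of the catalases, which break down hydrogen peroxide, cat-4 (NCU05169) was stable and the others were among the more variable genes. The cat-4 gene had 41.9, 41.8 and 42.9 CPM in mus-52 high-Pi, 40.7, 41.3 and 42.0 in mus-52 low-Pi, 48.1, 47.5 and 35.5 in WT high-Pi and 37.9, 48.3 and 48.3 in WT low-Pi. The 6 libraries labelled mus-52 were closer to each other than those of the wild type, and all groups overlapped. The highest CPM was 1.36 times the lowest for cat-4, but 5.70 times for cat-3 (NCU00355), 14.8 times for cat-1 (NCU08791) and 20.2 times for cat-2 (NCU05770). In high-Pi, cat-3 was higher in the libraries labelled mus-52 by 2.09 on the log2 scale (SE 0.365, adjusted p = 0.00188), cat-1 was lower by -2.11 (SE 0.395, adjusted p = 0.00256) and cat-2 was lower by -2.78 (SE 0.905, adjusted p = 0.0252, edgeR). In low-Pi none of these passed the test in edgeR, with 0.30 for cat-3 (adjusted p = 0.512), -0.03 for cat-1 (adjusted p = 0.958) and -2.13 for cat-2 (adjusted p = 0.0741). With both WT replicates I left out, the changes in high-Pi were 1.93, -1.76 and -3.32, and in low-Pi cat-3 (0.87, adjusted p = 0.000253) and cat-2 (-2.74, adjusted p = 7.21e-12) also passed. In the same fit the stable cat-4 was called lower in the mus-52-labelled libraries in low-Pi (-0.39, adjusted p = 0.00481, edgeR). It was not called in high-Pi (-0.14, adjusted p = 0.27). In Neurospora, cat-1 is known as the catalase of conidia and cat-3 as that of growing hyphae. In this and the paragraphs above, the relatives of stable genes were looked up by symbol once the stable genes were known, and they were outside the list either because their CV was higher or because they fell under 30 CPM in some library, as crf4-2, cat-1 and cat-2 did.

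The remaining named stable genes were syn-2 (NCU04244), a syntaxin of membrane fusion with 130 to 182 CPM, the seryl-tRNA synthetase gene NCU01443 with 164 to 232 CPM, acw-2 (NCU00957), an anchored cell wall protein with 361 to 509 CPM, uvs-5 (NCU00436) with 185 to 255 CPM and ppm-1 (NCU00087) with 187 to 248 CPM. NCU01443 was also the single stable gene among the 64 genes that the study listed for a predicted MAT1-1-1 binding motif upstream. No stable gene was among the 182 genes that it listed as possibly part of the mating-type mechanism. Among the 10 stable genes with the highest mean CPM, NCU00811 (1600 CPM), NCU09929 (845 CPM) and NCU02407 (830 CPM) had no name. Per kilobase of annotated gene length, the highest mean levels were those of hH3 (3020 CPM), am (1630 CPM), hH2B (1390 CPM) and NCU00811 (754 CPM).

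In their gene structure the stable genes were like other genes of this level. Annotated gene length had a median of 2679 bp (quartiles 2116 and 3479), against 2548 bp (1897 and 3448) for the other genes with CPM of at least 30 in all libraries and 2129 bp for all genes of the tables. The stable genes lay on all 7 chromosomes, with 26 on chromosome I, 8 on II, 14 on III, 18 on IV, 17 on V, 6 on VI and 11 on VII. In the same order, the other genes of this level had 26.9%, 11.4%, 13.3%, 14.3%, 17.3%, 8.61% and 8.11%. None had more than 1 annotated transcript, and only 0.154% of the other genes of this level did. Over all genes of the tables, 243 of 898 genes of this class had 0 counts in every library and 724 stayed under 3 CPM. Of 8831 genes with a single transcript, 356 had 0 counts in every library. Another annotated gene overlapped 26 of the stable genes, trp-3, hH2B and NCU01443 among them, and 28.0% of the other genes of this level, and their counts are less certain where strand was not used in counting. NCU06928 and NCU06929 on chromosome VII were the only pair of direct neighbours.

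The 4 comparisons of the design were then fitted over 7746 genes with edgeR, with the stable genes included. Since the rule used all 12 libraries, the counts that follow describe the stable genes and test nothing about them. For mus-52 against WT in high-Pi, 1 of the 100 stable genes was called at an adjusted p of at most 0.05, beside 48.8% of all genes, and in low-Pi 0 were called, beside 38.4%. For high-Pi against low-Pi, 0 stable genes were called in mus-52, beside 4.71% of all genes, and 0 in WT, beside 0.478%. At an unadjusted p under 0.05, the stable genes numbered 2 and 5 for the strains in high-Pi and low-Pi, beside 56.7% and 50.8% of all genes, and 2 and 6 for the media in mus-52 and WT, beside 16.6% and 13.3%. The replicate numbers paired the libraries within the wild type but not across the strains. With a replicate block within each strain, 43 genes in place of 37 were called for the media in WT (0.555% of all genes) and 509 in place of 365 in mus-52 (6.57%), and with a block across both strains 18 were called in WT (0.232%), with 0 stable genes in each.

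The single call was NCU02498, which had 73.4, 65.6 and 69.7 CPM in mus-52 high-Pi and 60.8, 57.5 and 61.8 in mus-52 low-Pi, against 64.1, 56.7 and 44.9 in WT high-Pi and 67.8, 63.1 and 60.2 in WT low-Pi. In high-Pi every mus-52 value was above every WT value, and in low-Pi the strains overlapped. Its log2 fold change in high-Pi was 0.38 (SE 0.145, adjusted p = 0.0469), and 0.29 without both WT replicates I (adjusted p = 0.0286, edgeR). No stable gene was called there with the replicate block (beside 48.4% of all genes), with RLE factors (beside 49.3%) or with column totals (beside 41.1%) over the 12 libraries.

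Over all 6 libraries of a strain, the strains did not overlap in 1 stable gene, beside 19.6% of the 2702 genes. This gene, NCU03217, had 175, 183 and 174 CPM in mus-52 high-Pi and 165, 157 and 169 in mus-52 low-Pi, against 136, 142 and 147 in WT high-Pi and 129, 131 and 142 in WT low-Pi. Its mean was 171 CPM in mus-52 and 138 CPM in WT, the largest strain difference of the list at 0.31 on the log2 scale, followed in size by NCU06928 and NCU01443 (0.24 each), ppm-1 (-0.23), and NCU06975, NCU03042 and NCU08888 (0.21 each). The media did not overlap in 2 stable genes, beside 0.296% of the 2702 genes. NCU04281 had 58.7, 54.6 and 53.3 CPM in mus-52 high-Pi and 58.4, 51.0 and 54.4 in WT high-Pi, against 48.5, 46.8 and 40.1 in mus-52 low-Pi and 42.9, 47.8 and 50.7 in WT low-Pi. NCU04473 averaged 75.4 CPM in high-Pi and 64.2 CPM in low-Pi. The largest media differences were 0.26 for crf4-3 and NCU04281, -0.25 for NCU01097, 0.24 for NCU04405 and 0.23 for NCU07286 and NCU04473.

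Without both WT replicates I, the count of calls rose for all genes and for the stable genes. For mus-52 against WT, 22 stable genes were called in high-Pi, 1 higher and 21 lower, beside 70.7% of all genes, and 38 in low-Pi, all lower in the libraries labelled mus-52, beside 72% of all genes. For high-Pi against low-Pi, 14 were called in mus-52, beside 33.2% of all genes, and 4 in WT, beside 16.1%. No change among these calls exceeded 0.54 on the log2 scale in size. Of the genes with a symbol, hH2B, trp-2, ro-3 (-0.31), cat-4, acw-2 (-0.25) and ppm-1 (-0.46) were called lower in mus-52 in low-Pi. In high-Pi, tba-2, acw-2 (-0.50) and ppm-1 (-0.36) were called lower. For the media in mus-52, crf4-3 (0.32) and am (0.28) were called higher in high-Pi, and acw-2 (-0.26) lower. Without both WT replicates I, the strains did not overlap in 12 stable genes, beside 59.2% of the 2702 genes.

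The direction of these small changes depended on how libraries were scaled. With TMM factors and without both WT replicates I, the median log2 fold change of the stable genes was -0.09 in high-Pi and -0.18 in low-Pi, against 0.01 and 0.05 over all genes. With column totals alone, the medians of the stable genes were 0.08 and -0.02, against 0.18 and 0.22 over all genes, and the stable genes called numbered 27 higher and 5 lower in high-Pi (beside 71.8% of all genes) and 6 higher and 6 lower in low-Pi (beside 71.9%). With RLE factors and all 12 libraries, 6 stable genes were called lower in the mus-52-labelled libraries in low-Pi, beside 40% of all genes.

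The same dependence showed in which genes the rule would choose. With TMM-scaled CPM, 37 of the 100 would be chosen again, and with RLE-scaled CPM 32. The TMM factor of WT high-Pi I was 1.32 and those of the other libraries 0.894 to 1.03. By CPM over column totals, 82 of the 100 stable genes were above their own mean in WT high-Pi I, on average by 0.15 on the log2 scale, and after TMM scaling 0 of 100 were, with an average of -0.25. The TMM scale ranked rco-1 first with a CV of 4.92%, and gnb-1 10th, whereas am moved from rank 95 to rank 647.

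**Figure D4:**
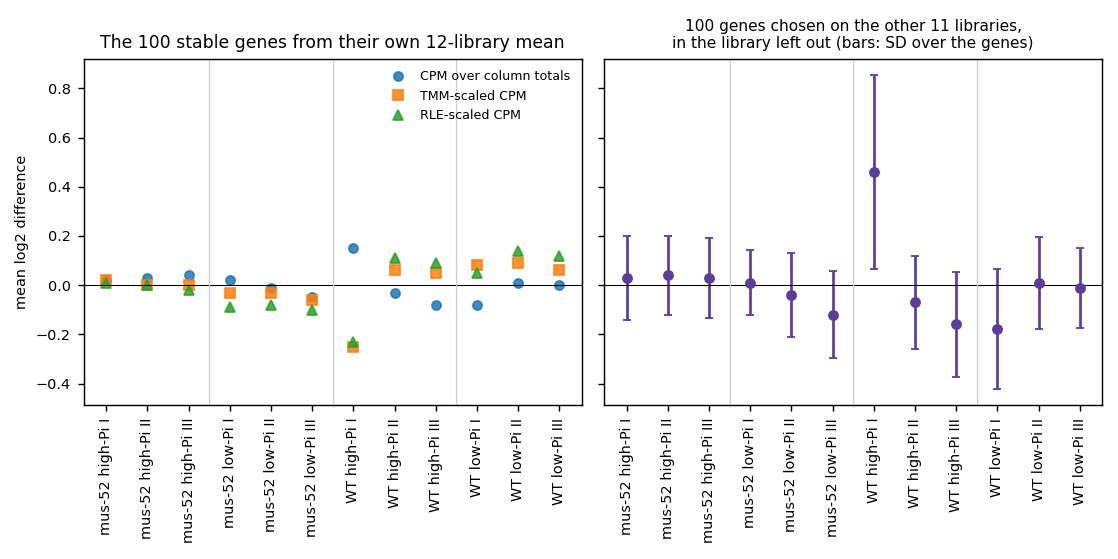
Left, the mean log2 difference of the 100 stable genes from their own 12-library mean, by library, with CPM over column totals (circles), TMM-scaled (squares) and RLE-scaled (triangles). Right, for 100 genes chosen on the other 11 libraries, their mean log2 difference in the library left out from their mean in those 11 (points, with the SD over the genes as error bars). WT high-Pi I is at 0.15 and -0.25 on the left by column totals and TMM, and at 0.46 on the right.

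To see the rule in a library it had not used, the 100 genes were chosen again on 11 libraries and read in the one left out. In the 11 libraries other than WT high-Pi I, such genes differed on average by -0.18 to 0.04 on the log2 scale from their mean elsewhere, and the median size of the difference was 0.0826 to 0.196, against 0.263 to 0.422 for all genes eligible in the same choice. In WT high-Pi I, the 100 genes chosen without it were higher by 0.46 on average (SD over genes 0.396), and the median size of 0.507 was close to the 0.528 of all eligible genes. Only 46 of those 100 were stable genes by the full rule, whereas leaving out any other library kept 81 to 94. WT high-Pi I was also the library in which the 100 most counted genes took the lowest share of counts (23.1%, against 29.8% or more in the others), and the part of this in the result was not tested.

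Over single strains the list differed more. Chosen on the 6 WT libraries alone, 35 of the 100 stable genes were kept, and on the 6 libraries labelled mus-52 alone 7. In the libraries labelled mus-52 genes varied less in general, and the median CV was 11.2% over 3476 eligible genes and 7.48% over the stable genes, of which 88 were below that median. In the 6 WT libraries the medians were 27.2% over eligible genes and 11.4% over the stable genes. In the 4 WT libraries of replicates II and III, they were 11.4% and 6.95%.

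There were 17 stable genes that were also chosen with TMM factors, with RLE factors and with any single library left out. They were gnb-1, hH3 and rco-1 among the named genes, and NCU06628, NCU03504, NCU07568, NCU09076, NCU03315, NCU06429, NCU09929, NCU02263, NCU09438, NCU06929, NCU06602, NCU01929, NCU01445 and NCU04427. NCU07568 was the gene with the lowest mean SD of log2 ratios to the other stable genes (0.15), a measure of pairwise stability that does not depend on the library total, and gnb-1 was second, tba-2 10th and Bml 59th of the 100. NCU07568 had 92.8, 88.6 and 93.2 CPM in mus-52 high-Pi, 88.5, 87.5 and 80.5 in mus-52 low-Pi, 79.9 and 82.3 in WT high-Pi II and III, with its highest value in WT high-Pi I, and 75.6, 83.8 and 84.6 in WT low-Pi, so that mus-52 high-Pi lay above both low-Pi groups and WT high-Pi overlapped all of them. The highest mean SD was that of am (0.263). These choices and ratios came from the same 12 libraries, and the ratios were taken to genes picked by a low CV over column totals. They describe the list and lend no support to any gene as a reference.

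As references, single genes and small panels were set against the geometric mean of the stable genes outside them. Beta-tubulin deviated from the other 99 stable genes by -0.35 in WT low-Pi III to 0.18 in WT high-Pi II on the log2 scale, a span of 1.44-fold, with an SD of 0.144 over the 12 libraries. Its mean deviations were 0.08 in mus-52 high-Pi, 0.00 in mus-52 low-Pi, 0.07 in WT high-Pi and -0.15 in WT low-Pi. On average it was 0.08 higher in mus-52 than in WT and 0.15 higher in high-Pi than in low-Pi, beside an SD of 0.126 between replicates, and being itself a stable gene it was given no test. The spans were 1.27-fold for tba-2 and 1.19-fold for gnb-1. The geometric mean of Bml, tba-2 and gnb-1 together spanned 1.16-fold with an SD of 0.0671, and that of the 5 stable genes with the lowest CV 1.14-fold with an SD of 0.0575. All of these are stable genes, chosen by a low CV on the same 12 libraries, so that the rule itself favours short spans and no support for their use follows from them. In the fit without both WT replicates I, tba-2 was among the genes called lower in the mus-52-labelled libraries in high-Pi (-0.34, adjusted p = 0.00711, edgeR), while Bml and gnb-1 were not called in any of the 4 comparisons.

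Actin, the other endogenous control of the study, could not be assessed. The act gene (NCU04173) had 1 count in each of 3 libraries and 0 in the other 9, and it is a gene with more than 1 annotated transcript. Given the floor of 3 counts, at 0.0534 to 0.171 CPM, its level in the tables says nothing about its RNA.

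Values of other genes often used for normalization are given as a description, since being outside the list fixes their CV above that of every stable gene. The tef-1 gene (NCU02003, elongation factor 1-alpha) had 38100, 36600 and 40900 CPM in mus-52 high-Pi and 38300, 40600 and 37800 in mus-52 low-Pi, against 22300, 24600 and 18200 in WT high-Pi and 36300, 21500 and 20200 in WT low-Pi. Every WT library was below every library labelled mus-52, and WT low-Pi I was close to them. It was higher in the mus-52-labelled libraries in high-Pi (log2 fold change 0.85, SE 0.315, adjusted p = 0.0421), while the 0.45 in low-Pi did not pass (adjusted p = 0.267). Without both WT replicates I it was higher in both media, by 0.68 (adjusted p = 5.5e-05) and 0.74 (adjusted p = 2.4e-05).

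The vma-2 gene (NCU08515), for a subunit of the vacuolar ATPase, went the other way. It had 290, 264 and 246 CPM in mus-52 high-Pi and 231, 213 and 228 in mus-52 low-Pi, against 506, 349 and 347 in WT high-Pi and 253, 332 and 329 in WT low-Pi. The strains did not overlap in high-Pi, and in low-Pi every WT value was also above every mus-52 value, with WT low-Pi I the nearest. It was lower in the libraries labelled mus-52 by -0.52 (SE 0.149, adjusted p = 0.0143) in high-Pi and -0.56 (SE 0.149, adjusted p = 0.0146) in low-Pi, and by -0.55 and -0.73 without both WT replicates I.

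The glyceraldehyde-3-phosphate dehydrogenase gene gpd-1 (NCU01528) had a CV of 15.1% at rank 237 and no call among the 4 comparisons over 12 libraries. It had 3040, 2960 and 2930 CPM in mus-52 high-Pi and 2750, 2480 and 2300 in mus-52 low-Pi, against 2000, 2660 and 3130 in WT high-Pi and 2830, 3530 and 3300 in WT low-Pi. In low-Pi every WT value was above every mus-52 value. The log2 fold change in low-Pi was -0.48 (SE 0.272, adjusted p = 0.17) and became -0.61 without both WT replicates I (adjusted p = 9.3e-05). The cyclophilin gene csr-1 (NCU00726) had a CV of 18.6% at rank 476 and no call over 12 libraries. When both WT replicates I were left out, csr-1 was called higher in high-Pi than in low-Pi in mus-52 (0.33, adjusted p = 0.0336), and so was gpd-1 (0.27, adjusted p = 0.0465). Relative to the stable genes, the span over the 12 libraries was 1.95-fold for gpd-1, 2.12-fold for vma-2 and 2.13-fold for tef-1.

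**Figure D5:**
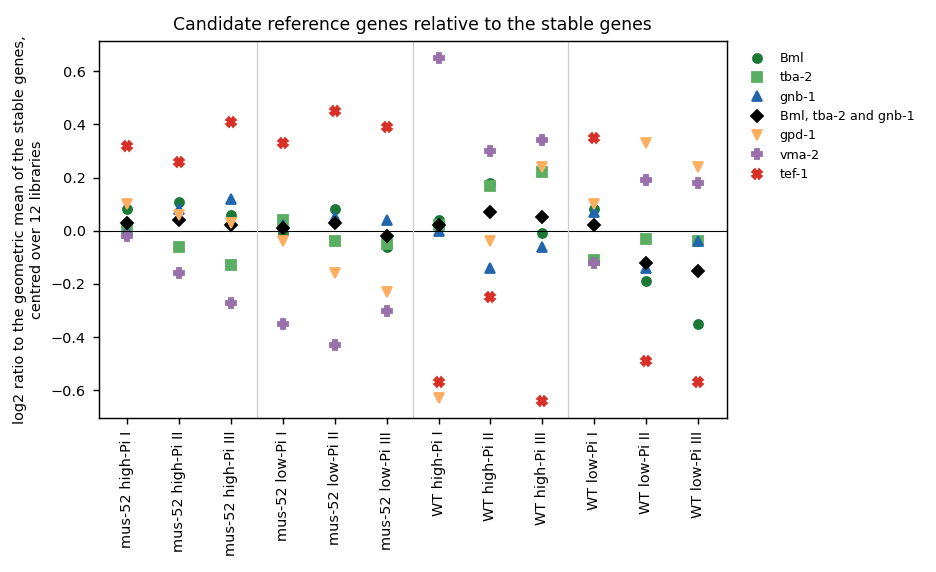
Log2 ratio of each candidate reference to the geometric mean of the stable genes outside it, centred over the 12 libraries, by library. The panel of Bml, tba-2 and gnb-1 (diamonds) stays between -0.15 and 0.07, whereas tef-1 lies between 0.26 and 0.45 in the libraries labelled mus-52 and between -0.64 and 0.35 in those of the wild type.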

How the data were processed

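Reads were aligned by the authors to assembly NC12 using Bowtie2, and the deposited values are raw counts per gene in 4 tables, 1 for each strain and medium, with 3 libraries each (the submitters' processing notes name FastQC 0.11.2, Bowtie2 2.1.0 and DESeq 1.28.0). Which program counted the reads, with or without strand, and how multiply mapped reads were handled is not given in the sources used here. Further tables by the authors hold DESeq means, fold changes and p-values, and they were not used. Columns were assigned by table and replicate number.

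CPM was computed over the column total of all genes. The stable genes, their functional groups and all lists were chosen with earlier results of these data known. Calls came from edgeR 4.0.16 (limma 3.58.1, R 4.3.3): TMM factors, filterByExpr, which kept 7746 genes, 1 fit of 4 groups over 12 libraries, the robust quasi-likelihood test and Benjamini-Hochberg adjustment, with an adjusted p of at most 0.05. Standard errors are the log2 fold change over the root of the F statistic. DESeq2 1.42.0, RLE factors, factors from the stable genes, column totals, no filter on low counts, a replicate block and libraries left out were alternatives. Same-numbered WT libraries deviated together (correlations of 0.357, 0.21 and 0.337 between media), those labelled mus-52 less so (0.29, 0.0945 and 0.133). Named were the 20 genes with the lowest CV, the 10 with the highest mean CPM, up to 4 in each functional group, ranks 96 to 105, the 5 largest differences between strains and between media, genes in the mating-type lists and the common references. The study calls its replicates biological, and the culture behind each is not given beyond that. Names, lengths and chromosomes came from a RefSeq table of NC12, which matched 9729 of 9730 genes. The choice by CV and the edgeR fit were tested on simulated data.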

Additional observations from a re-analysis of the deposited data

How the results depend on the processing

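Of the 100 stable genes, 37 were chosen with TMM-scaled CPM, 32 with RLE-scaled CPM, 39 with a minimum of 100 CPM (which only 39 of them reach in all libraries), 35 on the WT libraries alone, 7 on the libraries labelled mus-52 alone, 39 without both WT replicates I and 46 to 94 with 1 library left out. A minimum of 10 CPM kept 78, the SD of log2 CPM 91 and subtraction of the counting variance 97. The median CV of the stable genes was 9.63% to 11% with 1 library left out, and TMM, RLE and leaving out both WT replicates I gave 10.7%, 12% and 9.34%.

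DESeq2 called 281 genes for the media in WT and 690 in mus-52, in place of 37 and 365. Without both WT replicates I, an alternative added after seeing the data, 5622 genes were called for the strains in low-Pi in place of 2975, 1255 for the media in WT and 2589 in mus-52. With 1 library left out the counts were 2855 to 4567 for the strains in high-Pi, 1488 to 4681 in low-Pi, 4 to 175 for the media in WT and 82 to 875 in mus-52. The cause of these differences was not tested. The replicate block gave 18 calls for the media in WT, and a block within each strain, also added, gave 43 there and 509 in mus-52. The block moved no other count of calls by over 1.5 times, and it ended the call of NCU02498, as did RLE factors and column totals. Beta-tubulin relative to the other stable genes stayed at 0.03 to 0.14 for the strains and 0.10 to 0.21 for the media with 1 library left out. The alternatives for actin were not run, since it has almost no counts.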

Other observations

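Several genes without a symbol were steadier by TMM-scaled CPM than most of the stable genes without being among them. NCU00171 had a CV of 5.26% on that scale and 13.5% over column totals, where it ranked 154, and NCU09312 and NCU08452 had 6.14% and 6.31% on the TMM scale and ranks of 158 and 126. The hyphal anastomosis gene ham-4 (NCU00528) ranked 18 by TMM with a CV of 7.42% and 253 over column totals. Over all genes eligible on the TMM scale the median CV was 26.9%, against 28.9% with column totals. These genes were named after their values were seen.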
